A study of Homo sapiens with 24 samples.

Results

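Oncostatin M (OSM) was set against vehicle after 1 h in the human liver carcinoma line HepG2, which still makes many hepatocyte products. The comparison takes the 3 arrays titled as 1 h of OSM at 100 ng/mL and the 3 titled as 1 h of DMSO, 6 of the 24 arrays of the series, over every probe set that carries 1 gene symbol. These are 16098 of 53617 probe sets and stand for 14884 genes. The study was about inducers of TRIB1, and its other arrays hold OSM at 24 h, the small molecule BRD8518 at 1, 6 and 24 h, and DMSO at 6 and 24 h. Cells of both 1 h groups were cultured overnight before treatment and held 0.25% DMSO. OSM came in PBS with DMSO added to its wells, and the labels do not say whether vehicle wells also received PBS. HepG2 is a single tumour line, so both groups share its genome.

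OSM is a cytokine of the interleukin-6 family. It binds a receptor made of the signalling chain gp130 with the OSM receptor or the LIF receptor, which activates JAK kinases. These phosphorylate STAT3, which moves into the nucleus and binds DNA, while adaptor proteins start the MAP kinase cascade. In hepatocytes this family of cytokines is known for switching on acute phase proteins, and the SOCS proteins it induces shut the receptor down again.

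Levels are log2 values from the array. A change is the mean of the OSM arrays minus the mean of the DMSO arrays on that scale, and a change of 1 is a 2-fold difference. Genes are said to have risen or fallen where the limma test, adjusted by Benjamini-Hochberg over 14884 genes, gave p under 0.05. Nothing in the labels says that arrays of a group were separate cultures. The p-values thus speak of the spread among these 6 arrays and the other groups, and that spread may be technical. The arrays of both groups share position letter B in their titles, with OSM at numbers 2 to 4 and DMSO at numbers 5 to 7. What the code means is not stated, so position number and treatment cannot be told apart. One DMSO array at 6 h stood apart from the rest. It is in neither 1 h group but enters the shared estimate of spread, and leaving it out raised the counts given next to 475 higher and 331 lower.

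After 1 h of OSM, 302 of 14884 genes were higher than in DMSO cells, or 2.03% of those tested, and 121 were lower, or 0.813%. All 302 rises and 120 of the 121 falls had OSM and DMSO arrays that did not overlap. Over all genes the OSM arrays lay wholly above the DMSO arrays for 11.6% and wholly below for 11.2%, so separation alone is common. The rises were the larger changes: 68 reached 2-fold and 11 reached 4-fold, against 9 falls that reached 2-fold. The median change was 0.60 among rises and -0.53 among falls, beside 0.01 over all genes. In a bulk culture, fewer cells of a type and less RNA per cell cannot be told apart. The number of falls depended on single arrays, as it lay between 53 and 70 without OSM replicate 1, OSM replicate 3, DMSO replicate 1 or DMSO replicate 3.

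**Figure D1:**
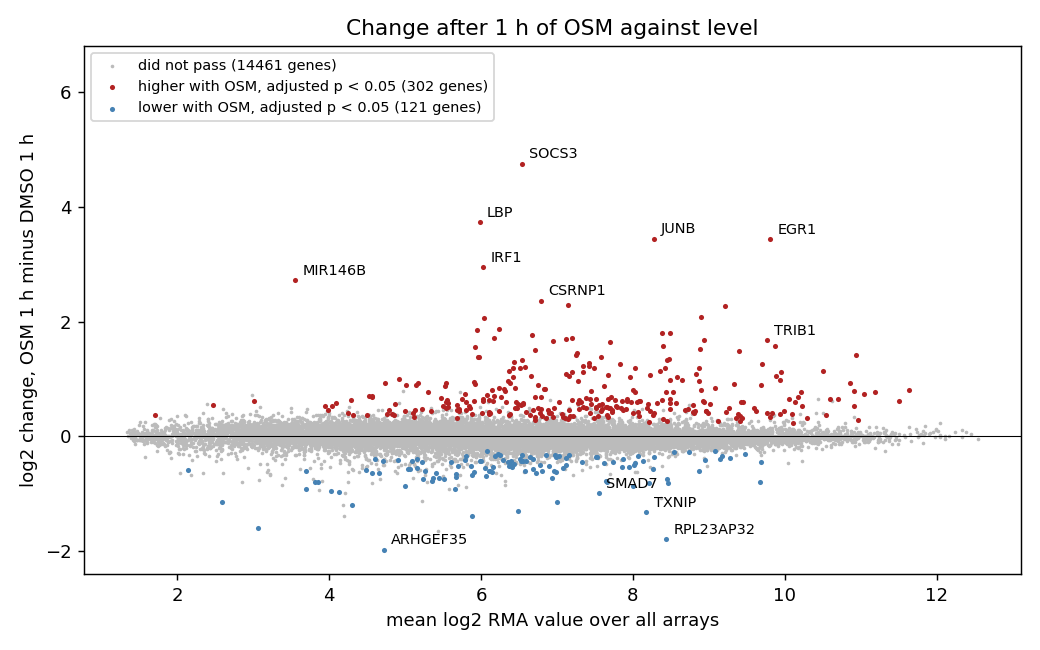
Change after 1 h of OSM (log2, OSM minus DMSO, vertical axis) against the mean log2 value over all arrays (horizontal axis) for 14884 genes, each 1 point. The 302 genes that rose (red) reach a change of 4.75 at SOCS3, while the 121 that fell (blue) reach -1.97 at ARHGEF35, and the other genes (grey) lie around 0.

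The cell type markers were close in both groups, apart from 4 hepatocyte genes described further on. The 15 hepatocyte markers measured averaged 10.2 to 10.3 per OSM array and 10.1 to 10.2 per DMSO array. Of 8 markers of macrophages, endothelium and bile duct cells, 0 rose, 0 fell and 0 had an unadjusted p under 0.05 in limma. With 2.03% of all genes higher and 0.813% lower, 0 calls among 8 genes is near the share over all genes. These markers averaged 7.07 to 7.18 per OSM array and 6.97 to 7.13 per DMSO array. The macrophage marker CD163 was the lowest of them, with a mean of 3.80 in OSM cells and 3.86 in DMSO cells. CD68, also a macrophage marker, was far higher, with 9.57 in OSM cells and 9.60 in DMSO cells. The progenitor and duct marker SOX9 was the highest, with 10.8 in OSM cells and 10.7 in DMSO cells. Their part in the changes was not tested.

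The largest change belonged to SOCS3, the inhibitor that binds gp130 and JAK and ends the signal. SOCS3 read 10.30, 10.26 and 10.13 on the OSM arrays, against 5.40, 5.62 and 5.41 on the DMSO arrays. The groups lay far apart and each was tight, with a change of 4.75 (SE 0.14, adjusted p = 3.83e-16). A second, dimmer SOCS3 probe set gave a change of 3.07. LBP, the secreted carrier of bacterial lipopolysaccharide, came next. Its values were 8.42, 8.45 and 8.54 with OSM and 4.74, 4.87 and 4.62 with DMSO, a change of 3.73 (SE 0.13, adjusted p = 8.21e-15). Every LBP value in OSM cells was thus above every one in DMSO cells, which was a condition for counting among the 20 largest rises.

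JUNB, a subunit of the AP-1 transcription factor, read 10.73, 10.62 and 10.56 with OSM and 7.22, 7.19 and 7.18 with DMSO (change 3.44, SE 0.12, adjusted p = 8.21e-15). Its arrays were tight in both groups, and the gene overlaps HOOK2 in the annotation. EGR1, a zinc-finger factor that growth signals induce within minutes, read 11.85, 11.80 and 11.84 with OSM and 8.34, 8.43 and 8.43 with DMSO (change 3.43, SE 0.13, adjusted p = 3.32e-14). IRF1, the interferon regulatory factor that STAT proteins induce, read 8.38, 8.72 and 8.50 with OSM and 5.62, 5.61 and 5.54 with DMSO (change 2.94, SE 0.11, adjusted p = 2.09e-14). The OSM arrays of EGR1 lay close together, while those of IRF1 were spread more widely than its DMSO arrays.

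The other large rises came from several roles. CSRNP1, a nuclear factor found as a target of axin, rose by 2.36 and RIPK4, a receptor-interacting protein kinase, by 2.29. LRG1, a secreted leucine-rich glycoprotein made by the liver in inflammation, rose by 2.27, and KLF6, a zinc-finger factor, by 2.07. FLRT3, a membrane protein that binds FGF receptors and lies within MACROD2, rose by 2.06, and HBEGF, a ligand of the EGF receptor, by 1.86. HPX, the heme scavenger of plasma, rose by 1.77, LOXL4, a lysyl oxidase of the matrix, by 1.71, and YPEL2 by 1.70. Adjusted p-values of these 9 genes were at or below 4.64e-07 in the limma fit.

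**Figure D2:**
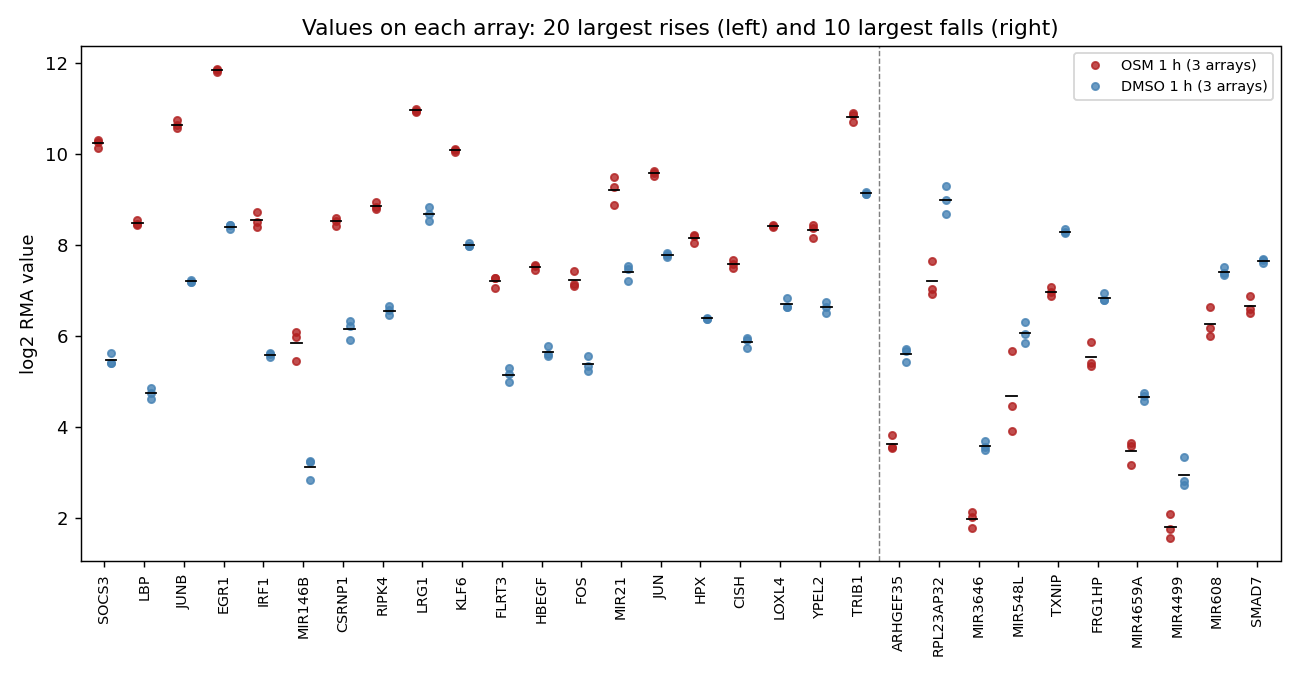
Log2 value on each array (vertical axis) for the 20 genes with the largest rises (left of the dashed line) and the 10 with the largest falls (right), with OSM arrays in red left of DMSO arrays in blue and black bars for the mean of 3 arrays. The 30 genes were chosen only among those whose OSM and DMSO arrays do not overlap. The OSM arrays of MIR548L, from 3.92 to 5.67, are the most spread of the genes shown.

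Some of these promoters hold the letters of a STAT site, and they are shown because STAT proteins are the factors that this receptor activates. The motif searched was TTCNNNGAA, which is its own reverse complement, in the 300 bases from 250 before to 50 after each gene's start in RefSeq (GRCh38.p14). Of the 20 genes with the largest rises, 15 had a promoter in that table and 4 of those hold a match: IRF1, CISH, LRG1 and EGR1. CISH encodes a SOCS-type inhibitor of cytokine receptors and has 4 matches. Capitals mark the matches in the stretches that follow, each 5′ to 3′ on the gene's strand. IRF1 is shown over chr5:132490859-132490927 (minus strand), CISH over chr3:50611848-50612024 (minus strand), LRG1 over chr19:4540160-4540228 (minus strand) and EGR1 over chr5:138465229-138465289 (plus strand).
IRF1: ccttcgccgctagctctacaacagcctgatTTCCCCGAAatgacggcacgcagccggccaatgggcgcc
CISH: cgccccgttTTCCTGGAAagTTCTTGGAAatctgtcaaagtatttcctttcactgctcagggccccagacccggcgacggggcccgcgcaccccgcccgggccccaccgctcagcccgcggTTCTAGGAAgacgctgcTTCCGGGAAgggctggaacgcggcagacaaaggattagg
LRG1: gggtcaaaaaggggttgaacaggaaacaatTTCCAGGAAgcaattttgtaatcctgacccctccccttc
EGR1: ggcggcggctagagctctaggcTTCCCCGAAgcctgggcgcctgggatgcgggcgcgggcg
The matches begin 124 bases before the start in IRF1, 162 in LRG1 and 228 in EGR1. Among the 302 rises, 29 of the 231 with a promoter in the table hold the motif, or 12.6%. The share was 8.05% for the falls (7 of 87), 6.74% for all genes tested (724 of 10749) and 7.88% for every promoter of the table. The CRE letters TGACGTCA stood in 6.49% of the promoters of rises and 2.62% of all genes tested, and the EGR1 letters GCGGGGGCG in 11.3% and 7.14% (both strands searched). For the AP-1 letters TGANTCA the shares were 7.36% and 5.92%, for the E-box CACGTG 6.06% and 9.02%, and for the CArG box bound by SRF 2.16% and 1.23%. These matches describe the letters in the window and no binding was measured.

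The receptor chains and signalling genes that were measured changed little in their own transcripts. The gp130 chain (IL6ST) was not among the genes tested, so its transcript was not read here. The group had a median change of 0.03. Of 12 genes measured in it, 2 rose and 0 fell, beside 2.03% and 0.813% of all genes. OSMR, the OSM receptor chain, read 9.82, 9.80 and 9.79 with OSM and 9.29, 9.31 and 9.31 with DMSO, so the groups were narrow and separate (change 0.50, SE 0.07, adjusted p = 3.81e-05). STAT3 itself rose by 0.37 (SE 0.08, adjusted p = 0.00724). LIFR, the partner chain, read 7.40, 7.51 and 7.30 with OSM and 7.59, 7.44 and 7.68 with DMSO. Its arrays overlapped and the change of -0.17 did not pass (95% interval -0.42 to 0.09).

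Inhibitors of cytokine signalling had a median change of 0.43. Of 8 measured, 4 rose and 0 fell, beside 2.03% and 0.813% of all genes. Besides SOCS3 these were CISH, SOCS1 and SOCS2. CISH read 7.59, 7.67 and 7.48 with OSM and 5.74, 5.91 and 5.94 with DMSO (change 1.71, SE 0.09, adjusted p = 6.23e-12). SOCS1, which blocks JAK kinases, read 8.91, 8.82 and 8.85 with OSM and 7.44, 7.53 and 7.45 with DMSO (change 1.39, SE 0.13, adjusted p = 1.62e-07). SOCS2 rose by 0.67, and the OSM arrays of all 4 genes lay above their DMSO arrays. The 4 genes that did not pass had changes between -0.12 and 0.19. LIF, a cytokine that shares the gp130 chain, rose by 1.09 (named after its value was seen).

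Of 20 measured genes listed as STAT3 targets, 13 rose and 0 fell, beside 2.03% and 0.813% of all genes. The 20 had a median change of 0.90, beside 0.01 over all genes. All the gene lists were chosen with earlier results of these data known, and some share members. Their counts and medians are thus descriptions. BCL3, an IkB-family regulator of NF-kB, rose by 1.20 and TIMP1, an inhibitor of matrix proteases whose locus overlaps SYN1, by 1.52. PIM1, a survival kinase, rose by 1.19, MCL1, an anti-apoptotic BCL2 relative, by 0.99, and IL4R, a cytokine receptor chain, by 1.09. PIM3 rose by 0.81 with an adjusted p of 0.0333, a call lost without any one of the 6 arrays, where the highest adjusted p was 0.172. Some of the best known targets in growth control did not pass. MYC read 9.52, 9.54 and 9.52 with OSM and 9.38, 9.34 and 9.32 with DMSO, which do not overlap, yet the change of 0.18 had an adjusted p of 0.185. CCND1 (cyclin D1) had a change of -0.10 and BCL6 one of 0.12.

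Immediate-early genes are those that signals switch on without new protein synthesis. Of 27 measured, 18 rose, 9 did not pass and 0 fell, beside 2.03% higher and 0.813% lower over all genes. All 27 had a change above 0, with a median of 0.85. The AP-1 family was represented on both sides of the dimer. JUN read 9.63, 9.57 and 9.52 with OSM and 7.82, 7.73 and 7.77 with DMSO (change 1.80, SE 0.08, adjusted p = 2.53e-13). FOS read 7.43, 7.09 and 7.15 with OSM and 5.34, 5.55 and 5.24 with DMSO (change 1.85, SE 0.16, adjusted p = 6.46e-08). Second, dimmer probe sets gave smaller changes, 0.57 for FOS, 1.58 for EGR1 and 0.20 for FOSB (adjusted p = 0.606), so the size of these changes depends on the probes. FOSL2 rose by 1.65, FOSL1 by 1.19, FOSB by 0.85 and JUND by 0.64. Among Kruppel-like factors, KLF10 rose by 1.68 and KLF9 by 1.34 beside KLF6. ATF3, a stress-induced repressor, rose by 1.38, IER2 by 1.45 and IER3, which is linked to survival signalling, by 1.43, with 0.78 on its dimmer probe sets.

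Brakes of the MAP kinase cascade rose as well, with 7 of 13 measured genes higher and 0 lower, beside 2.03% and 0.813% of all genes. The 13 had a median change of 0.48. DUSP6, the phosphatase specific for ERK, read 9.14, 9.20 and 9.15 with OSM and 7.81, 7.85 and 7.79 with DMSO (change 1.35, SE 0.08, adjusted p = 5.65e-11). DUSP1, which acts on several MAP kinases, read 9.09, 9.03 and 9.03 with OSM and 7.66, 7.66 and 7.84 with DMSO (change 1.33, SE 0.07, adjusted p = 1.96e-11). Both genes had OSM arrays more than 1 log2 unit above any DMSO array. SPRY4 rose by 1.25, ERRFI1, an inhibitor of the EGF receptor, by 0.74, DUSP5 by 0.68, SPRY2 by 0.48 and DUSP8 by 0.48. SPRY2 lost its call in a fit of the 2 groups alone and DUSP8 without DMSO replicate 3. The DUSP5 call was lost when its probe sets were averaged (0.37, adjusted p = 0.182). The other 6 members lay between -0.03 and 0.20.

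TRIB1, the pseudokinase that brings the COP1 ubiquitin ligase to its substrates and gives the series its theme, was among the 20 largest rises. It read 10.69, 10.89 and 10.84 with OSM and 9.15, 9.12 and 9.12 with DMSO (change 1.68, SE 0.08, adjusted p = 3.1e-12). Its relatives did not pass: TRIB2 read 5.87, 5.46 and 5.51 with OSM and 5.44, 5.67 and 5.49 with DMSO, with overlap, and a change of 0.08 (95% interval -0.14 to 0.31). TRIB3 read 9.14, 9.20 and 9.26 with OSM and 9.02, 8.96 and 9.01 with DMSO, without overlap, and a change of 0.20 (95% interval 0.02 to 0.39, adjusted p = 0.383).

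Acute phase genes rose within the hour. Of 19 measured genes of positive acute phase proteins, 13 rose and 0 fell, beside 2.03% and 0.813% of all genes. All 19 had a change above 0, with a median of 0.63. HP, haptoglobin, the plasma carrier of free hemoglobin, read 11.12, 11.14 and 11.13 with OSM and 9.57, 9.57 and 9.50 with DMSO (change 1.58, SE 0.10, adjusted p = 1.34e-10). HPR is near-identical to HP, and its change of 1.23 may rest on the same RNA. HPX read 8.05, 8.22 and 8.19 with OSM and 6.40, 6.37 and 6.38 with DMSO (change 1.77, SE 0.10, adjusted p = 2.39e-11). Both heme and hemoglobin carriers were thus higher on all 3 OSM arrays than on any DMSO array.

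HAMP, which encodes the iron hormone hepcidin, read 10.51, 10.24 and 10.40 with OSM and 8.80, 8.95 and 8.93 with DMSO (change 1.49, SE 0.19, adjusted p = 1.27e-05). The 3 fibrinogen chains rose by different amounts: FGB by 1.14, FGG by 0.65 and FGA by 0.62. CD14, a lipopolysaccharide receptor that overlaps TMCO6, rose by 0.78, and MT2A, a metallothionein, by 0.69. ORM1 rose by 0.63, but one DMSO array at 7.38 lay near the OSM values of 7.51 to 7.79, and the call was lost in a fit of the 2 groups alone and without OSM replicate 1, OSM replicate 3, DMSO replicate 1 or DMSO replicate 2. SAA1, a classical acute phase gene, read 4.07, 4.42 and 4.28 with OSM and 3.89, 3.81 and 4.13 with DMSO, which overlap. Its change of 0.31 did not pass (adjusted p = 0.433). Of 10 genes whose proteins fall in the acute phase, 0 passed in either direction in limma. Also, 0 had an unadjusted p under 0.05 in limma, and the median was 0.04. With 2.03% of all genes higher and 0.813% lower, 0 calls among 10 genes is near the share over all genes. TF (transferrin) had a change of -0.11 and ALB (albumin) one of 0.11.

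**Figure D3:**
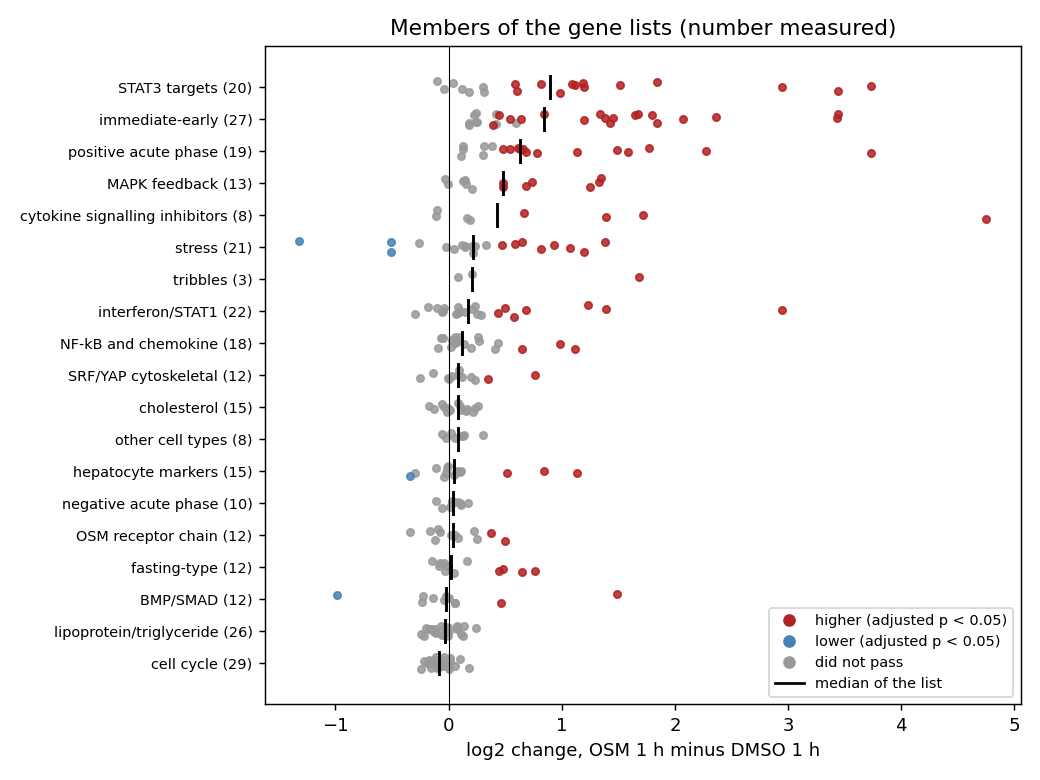
Log2 change after 1 h of OSM (OSM minus DMSO, horizontal axis) of every measured member of 19 gene lists, with the number measured in brackets, red for genes that rose, blue for genes that fell, grey for those that did not pass, and a black bar for the list's median. Medians reach 0.90 for STAT3 targets and 0.85 for immediate-early genes, and lie between -0.08 and 0.09 for the lists from SRF/YAP genes downward.

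Interferon-linked genes were split. Their median change was 0.17. Of 22 measured, 7 rose and 0 fell, beside 2.03% and 0.813% of all genes. Besides IRF1 and SOCS1, IRF9, the DNA-binding part of the interferon-activated complex, read 8.10, 8.36 and 8.37 with OSM and 7.0, 7.05 and 7.08 with DMSO (change 1.23, SE 0.08, adjusted p = 6.39e-10). RIGI, a sensor of viral RNA, rose by 0.69. IFITM1, IFITM2 and IFITM3, membrane proteins that block virus entry, rose by 0.58, 0.44 and 0.50 on probe sets that may read each other. IFITM3 lost its call without any one of the 6 arrays, and IFITM1 and IFITM2 without OSM replicate 1 or DMSO replicate 1. IFNGR1, the interferon gamma receptor chain, rose by 1.07 (named after its value was seen). Of 18 genes listed for NF-kB and chemokines, 3 rose and 0 fell: ICAM1, an adhesion molecule, by 1.12, the chemokine CCL20 by 0.98 and NFKB2 by 0.65, the last lost without OSM replicate 2 or DMSO replicate 2. CXCL8 had a change of 0.41 that did not pass (adjusted p = 0.085).

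Stress-linked genes moved in both directions, 8 of 21 up and 3 down, beside 2.03% and 0.813% of all genes. ADM, a vasodilator peptide, rose by 1.19, PLK3, a polo-like kinase, by 1.07, XBP1, a factor of the unfolded protein response, by 0.93, GDF15 by 0.81 and HMOX1, heme oxygenase, by 0.65. TXNIP, the arrestin-like protein that limits glucose uptake and inhibits thioredoxin, read 6.89, 7.07 and 6.96 with OSM and 8.25, 8.34 and 8.28 with DMSO (change -1.32, SE 0.14, adjusted p = 8.06e-07). A second TXNIP probe set gave -0.83. Its relative ARRDC4 fell by 0.51 and so did DDIT4, an inhibitor of mTOR signalling, while ARRDC3 had a change of 0.15 that did not pass. The DDIT4 call was lost without OSM replicate 1 or DMSO replicate 1.

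A few liver genes moved within the hour, beside 2.03% of all genes that rose and 0.813% that fell. Among hepatocyte markers, the transcription factors PROX1 and FOXA3 rose by 0.84 and 0.52, FGB rose as given, and FOXA2 fell by 0.34. Of 12 fasting-type genes 4 rose: SIK1, a kinase that cyclic AMP induces, by 0.77, IGFBP1 by 0.65, PCK1, the gate enzyme of gluconeogenesis, by 0.48 and FOXO1 by 0.45. The calls of FOXA3, IGFBP1 and PCK1 were lost without DMSO replicate 3. In the BMP and SMAD group of 12, HAMP and TGIF1 (0.46) rose. SMAD7, the inhibitory SMAD of that pathway, read 6.60, 6.88 and 6.50 with OSM and 7.68, 7.60 and 7.66 with DMSO (change -0.99, SE 0.11, adjusted p = 3.73e-06). HAMP and SMAD7 thus lay on opposite sides of their DMSO arrays. Of 12 SRF and YAP targets, ANKRD1 rose by 0.77 and SRF by 0.34, the second lost in a fit of the 2 groups alone and without OSM replicate 1 or DMSO replicate 1.

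The lists of cholesterol, lipoprotein and triglyceride, and cell cycle genes had no member that passed at 1 h. Only 2.03% of all genes rose and 0.813% fell at 1 h, so lists of this size may hold none without differing from that share. Of 15 cholesterol synthesis genes, 0 rose and 0 fell, and HMGCS1 had a change of 0.08 (95% interval -0.07 to 0.24). Of 26 lipoprotein and triglyceride genes, again 0 passed, and MTTP, which loads lipid onto apolipoprotein B, had a change of -0.11 (95% interval -0.49 to 0.28). Of 29 cell cycle genes, 0 passed and the median was -0.08. At 24 h of OSM over DMSO at 24 h, 10 of the 15, 10 of the 26 and 23 of the 29 were lower, and 0, 2 and 0 were higher, beside 5.65% of all genes that were lower and 4.6% that were higher at that time. At 1 h in limma, with no other tool run, an unadjusted p under 0.05 was found for 1 of the cholesterol, 4 of the lipoprotein and triglyceride and 3 of the cell cycle genes, beside 1632 of all 14884 genes.

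ARHGEF35, which has near-identical relatives that its probes may read, read 3.82, 3.56 and 3.53 with OSM and 5.67, 5.42 and 5.72 with DMSO (change -1.97, SE 0.34, adjusted p = 0.000819). Its OSM values lay under 4, so the size of this change is uncertain. RPL23AP32, a ribosomal pseudogene inside SPTBN1, fell by 1.79 and FRG1HP, a pseudogene that overlaps PGM5P2, by 1.30. Of the 10 largest falls, 5 carried the names of microRNAs, and each lies within a protein-coding gene: MIR3646 in HNF4A (-1.59), MIR548L in MRE11 (-1.38), MIR4659A in AGPAT5 (-1.20), MIR4499 in CRYL1 (-1.15) and MIR608 in SEMA4G (-1.14). MIR3646, with means of 1.98 in OSM cells and 3.58 in DMSO cells, and MIR4499, with 1.81 in OSM cells and 2.95 in DMSO cells, lay under 4 in both groups, where signal over background is not known, so the size and rank of their changes are uncertain. The OSM arrays of MIR548L were spread from 3.92 to 5.67 and its call was lost in 7 of 15 alternatives, among them the fits without OSM replicate 1, OSM replicate 3 or any DMSO array. MIR4659A lost its call with probe sets averaged and without OSM replicate 3, DMSO replicate 1 or DMSO replicate 3, and its other probe set gave 0.23.

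A few smaller falls were named after their values were seen. HHEX, a homeobox factor of liver development, read 7.03, 6.95 and 6.93 with OSM and 7.82, 7.67 and 7.76 with DMSO (change -0.78, SE 0.13, adjusted p = 0.000566). HMGA2, a chromatin protein, fell by 0.81, OTX1, a homeobox factor, by 0.61, and KCNQ1OT1, a long noncoding RNA within KCNQ1, by 0.81. Genes with ZNF names, mostly zinc-finger proteins, numbered 491, of which 22 fell (4.48%) and 7 rose (1.43%), with a median of -0.08, beside 0.813% lower and 2.03% higher over all genes. Of 27 with ZKSCAN or ZSCAN names, 5 fell and 0 rose, with a median of -0.17. Examples are ZNF737 (-0.74), ZSCAN2 (-0.62) and ZKSCAN3 (-0.56) among falls and ZNF878 (1.28) among rises. Families were grouped by name with values known, so these shares are descriptions.

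Probe sets named for microRNAs numbered 1072, of which 14 rose (1.31%) and 16 fell (1.49%), beside 2.03% and 0.813% of all genes. Such probes pick up the precursor or its host RNA and do not measure the mature form. The 3 mature sequences from RefSeq (GRCh38.p14) are shown because their genes moved in different directions or lie among the largest rises. The seed, bases 2 to 8, is in capitals. The miR-146b-5p arm lies at chr10:102436520-102436542, miR-146a-5p at chr5:160485372-160485393 and miR-21-5p at chr17:59841273-59841294, all on the plus strand.
miR-146b-5p: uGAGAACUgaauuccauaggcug
miR-146a-5p: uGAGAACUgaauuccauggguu
miR-21-5p: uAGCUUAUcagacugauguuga
The 2 miR-146 arms share their seed and 20 of 22 positions. They differ at G18A and U21C (the base of miR-146a first, counted from the 5′ end), and miR-146b is 1 base longer. MIR146B read 5.44, 6.09 and 5.97 with OSM and 2.85, 3.24 and 3.26 with DMSO (change 2.72, SE 0.18, adjusted p = 6.24e-10). MIR146A read 5.56, 5.63 and 5.69 with OSM and 6.13, 6.02 and 6.17 with DMSO (change -0.48, SE 0.10, adjusted p = 0.00571). The probe sets named for these 2 genes thus changed in opposite directions, and that of MIR146A may read the host transcript MIR3142HG. The DMSO values of MIR146B lay under 4, where signal over background is not known, so the size of its change is uncertain. MIR3142, in the same host, also fell, by 0.95, a call lost without DMSO replicate 1. MIR21, which overlaps VMP1, read 8.87, 9.49 and 9.28 with OSM and 7.48, 7.20 and 7.54 with DMSO (change 1.81, SE 0.14, adjusted p = 3.8e-09), and its probes cannot separate the 2 genes.

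The early response was then set against OSM at 24 h over DMSO at 24 h, which shares no arrays with it. Of the 302 rises at 1 h, 157 were also higher at 24 h, which is 52% of the 1 h rises and 22.9% of the 24 h rises, 8 were lower and 137 did not pass. Over all genes 4.6% were higher and 5.65% lower at 24 h. Their median change was 0.60 at 1 h and 0.34 at 24 h. Of the 121 falls, 27 were also lower at 24 h (22.3% of the 1 h falls, 3.21% of the 24 h falls), 4 were higher and 90 did not pass, with medians of -0.53 and -0.23. These genes were chosen by their 1 h values, so the smaller medians at 24 h are descriptions. Tested directly over all genes, the OSM effect was higher at 1 h than at 24 h for 313 genes (2.1%) and lower for 189 (1.27%).

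MIXL1, a homeobox gene of early development, had the largest difference. It read 9.90, 10.02 and 10.07 with OSM at 1 h against 9.24, 9.16 and 9.15 with DMSO, and 6.70, 6.90 and 6.66 with OSM at 24 h against 9.0, 9.30 and 9.26 with DMSO. The gene rose by 0.81 at 1 h and fell by 2.43 at 24 h, a difference of 3.24 (SE 0.15, adjusted p = 4.28e-12). GSTA2, a glutathione transferase, had a change of 0.29 at 1 h that did not pass and one of -2.73 at 24 h, and LEAP2, an antimicrobial peptide of the liver, 0.15 and -2.00. IRF1 and CSRNP1 were early, with changes of 2.94 and 2.36 at 1 h and 0.40 and 0.28 at 24 h.

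The opposite order held for LY96, the partner of TLR4 in lipopolysaccharide recognition. It read 5.74, 5.53 and 5.41 with OSM at 1 h against 4.56, 4.67 and 4.64 with DMSO, and 8.79, 8.25 and 8.50 with OSM at 24 h against 4.78, 4.46 and 4.57 with DMSO. Its change was 0.94 at 1 h (lost without OSM replicate 1 or DMSO replicate 1) and 3.91 at 24 h, a difference of -2.97 (SE 0.30, adjusted p = 8.29e-07). LBP went the same way, with 3.73 at 1 h and 5.70 at 24 h, as did LYVE1, a hyaluronan receptor, with 0.83 and 2.70. OSMR changed by 0.50 at 1 h and 1.20 at 24 h, while LIFR changed by -0.17 and -1.06. TRIB1 was early, with 1.68 at 1 h and 0.57 at 24 h.

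Called in opposite directions at the 2 times were 12 genes. ANKRD1, RHOB, SPRY2, DUSP8, JUND, TIPARP, FBXO5 and MIXL1 rose at 1 h and fell at 24 h. RHOB had changes of 1.04 and -0.37, and ANKRD1, a muscle and YAP-linked repeat protein, 0.77 and -0.63. TXNIP, ARRDC4, MIR146A and MRPS31P5 fell at 1 h and rose at 24 h. TXNIP read 8.93, 8.82 and 8.99 with OSM at 24 h against 8.07, 8.14 and 8.13 with DMSO, so its OSM arrays were below DMSO at 1 h and above it at 24 h (changes -1.32 and 0.80). MIR146A had changes of -0.48 and 0.60. At 1 h, besides DUSP8 and SPRY2, FBXO5 lost its call without OSM replicate 3 or DMSO replicate 3, and MRPS31P5 without OSM replicate 1, OSM replicate 3, DMSO replicate 1 or DMSO replicate 3.

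**Figure D4:**
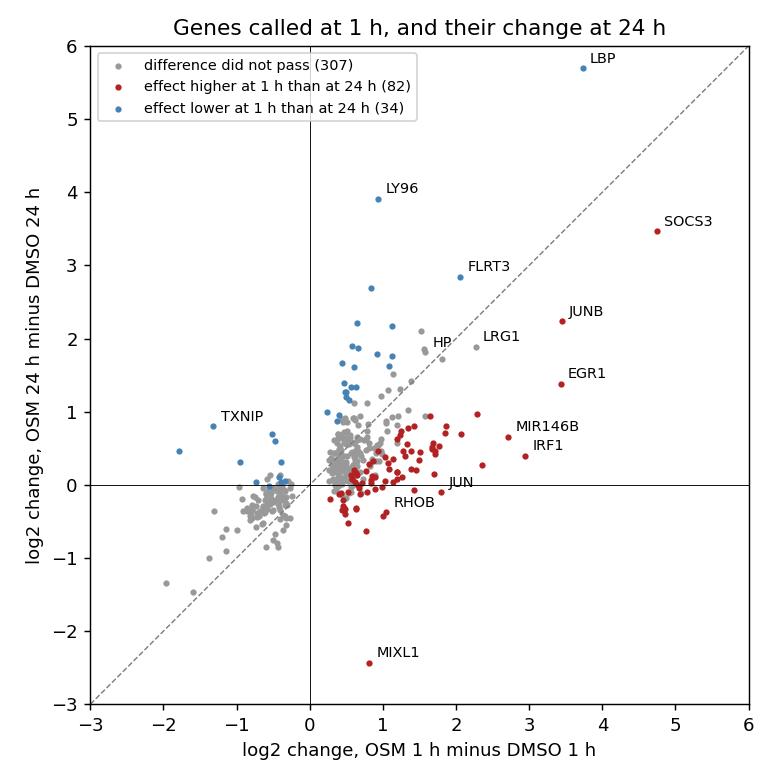
Log2 change of the 423 genes called at 1 h of OSM (horizontal axis, OSM minus DMSO at 1 h) against their change at 24 h (vertical axis, OSM minus DMSO at 24 h), coloured by the test of the difference, with a dashed line of equal change. SOCS3, EGR1, IRF1 and MIR146B lie below the line, LBP and LY96 above it, and MIXL1 and TXNIP where the signs are opposite.

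OSM was also set directly against 1 uM BRD8518, a compound that the labels give only as a code, at the same hour. The OSM arrays were higher for 223 genes (1.5%) and lower for 126 (0.847%). SOCS3 was 4.60 higher with OSM, LBP 3.60, IRF1 2.79, MIR146B 2.73 and JUNB 2.35. SOCS3 read 5.32, 5.87 and 5.69 with BRD8518, against 10.13 to 10.30 with OSM. TRIB1 read 9.30, 9.35 and 9.34 with BRD8518 and was 1.48 higher with OSM (SE 0.08, adjusted p = 4.11e-11). EGR1 read 11.23, 11.58 and 11.51 with BRD8518, all below the OSM arrays, and the difference of 0.39 did not pass (95% interval 0.12 to 0.66, adjusted p = 0.172). JUN was 0.31 higher with OSM (adjusted p = 0.0325) and FOS 0.72 (adjusted p = 0.0155).

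Both treatments were measured against the same DMSO arrays, so their changes are not independent and are given only side by side. EGR1 changed by 3.43 with OSM and 3.04 with BRD8518, JUN by 1.80 and 1.49, DUSP1 by 1.33 and 0.97, and KLF6 by 2.07 and 1.17. For HP the changes were 1.58 and -0.01, for CISH 1.71 and 0.09, and for HBEGF 1.86 and 0.10. Among the genes lower with OSM than with BRD8518, ARRDC3 read 7.97, 8.01 and 7.79 with OSM and 9.41, 9.61 and 9.65 with BRD8518 (difference -1.63, SE 0.13, adjusted p = 1.02e-08). The others of the 5 largest were MIR548L (-1.98), MIR554 (-1.81), ARHGEF35 (-1.69) and MIR3646 (-1.41). Of these, MIR554 did not pass for OSM over DMSO at 1 h. The OSM arrays of MIR548L were widely spread, and ARHGEF35 and MIR3646 averaged under 4 with OSM, as described above. ARHGEF35 ran from 4.64 to 5.85 on the BRD8518 arrays. SMAD7 was lower with OSM by 1.40 and HHEX by 1.02. With position letter as a fixed term the counts fell to 130 higher and 53 lower, where 2 of the 3 BRD8518 arrays carry a letter of their own. The count of lower genes was 75, 67 and 75 without OSM replicate 1, OSM replicate 3 or BRD8518 replicate 1.

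**Figure D5:**
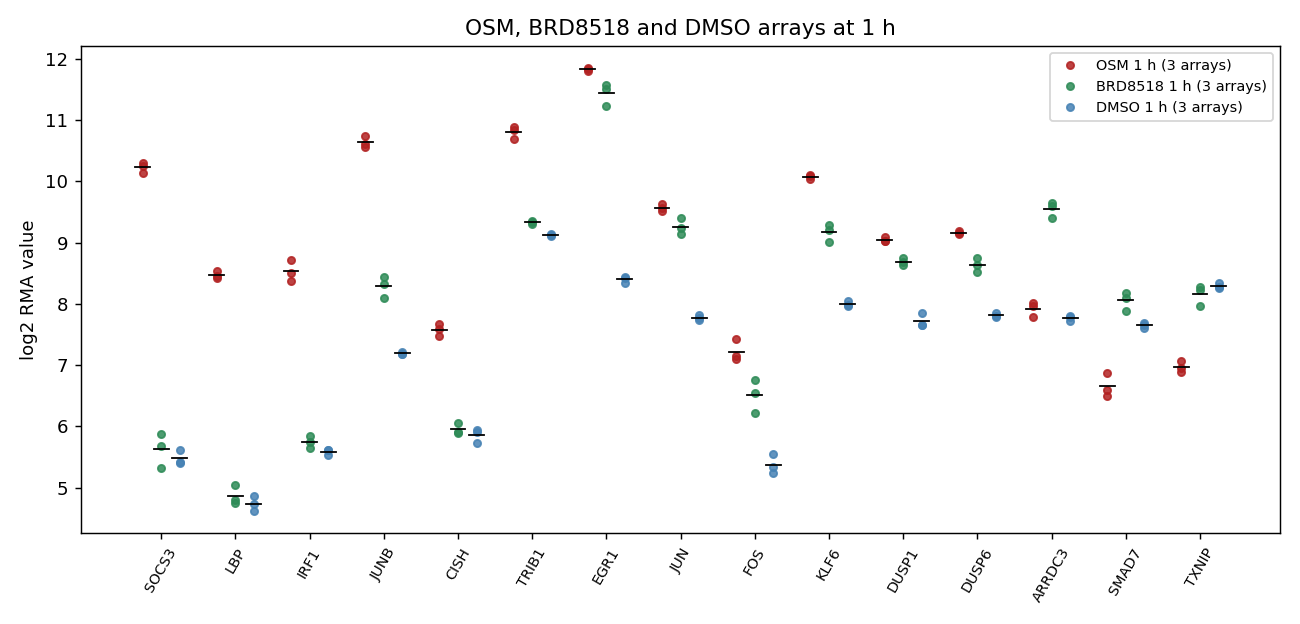
Log2 value on each array (vertical axis) of 15 genes at 1 h with OSM (red), BRD8518 (green) and DMSO (blue), 3 arrays each, with black bars for means. SOCS3, LBP, IRF1 and CISH are high on the OSM arrays alone, EGR1 and JUN are high on OSM and BRD8518 arrays, and ARRDC3 is high on the BRD8518 arrays alone.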

How the data were processed

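Total RNA of treated HepG2 cells was labelled with whole-transcript kits and hybridised to Affymetrix whole-transcript arrays, per the labels' protocols. Per the submitters' processing notes, the authors ran RMA through oligo, and the deposited log2 values are the result. Tool versions and the build were not given in the sources used here. Values ran from 0.913 to 13.7 and entered the fit as deposited, with array medians of 4.89 to 4.95. No pair of arrays was identical, and the lowest correlation among the 6 arrays was 0.9901. RMA values carry no detection calls, and 2388 genes had a mean under 4. The number of arrays limits the precision.

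Symbols came from the platform annotation, which named 1 symbol for 16098 probe sets and left 37519 unnamed here. For 779 genes with several probe sets the brightest on average was used. All 24 arrays in 8 groups were fitted with limma 3.58.1 (R 4.3.3), with 1 mean per group and empirical Bayes moderation (prior degrees of freedom 5.3, total 21.3), and p-values on 2 sides were adjusted by Benjamini-Hochberg over 14884 genes with a threshold of 0.05. Alternatives were a filter on low genes, median centring, quantile normalization, trend and robust moderation, array weights, fitting only the groups compared, other uses of probe sets, the position letter as a block or term, and leaving out single arrays. The fit was tested on simulated data. Figures used Python 3.11 and matplotlib 3.10.9.

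The members, the 19 gene lists (431 genes, 283 measured) and the tests were chosen with earlier results of these data known. By rule the text names the 20 largest rises and 10 largest falls with separate arrays, and the 5 largest each way in the other comparisons. From each list the rule took up to 6 rises and 6 falls, and in lists with few calls up to 3 that did not pass. It also took the TRIB genes, OSMR, LIFR and SOCS3. Some of its members that did not pass, JAK1 and JAK2 among them, are not given in the text. MYC, BCL6, CXCL8 and SAA1, which did not pass, were added after their values were seen. List members beyond the 6 largest, genes called in opposite directions at 1 h and 24 h, IFNGR1, LIF, HHEX, HMGA2, OTX1, KCNQ1OT1, MIR146A, MIR3142 and the zinc-finger examples were added after their values were seen. Differences between 1 h and 24 h were looked at for the largest changes, the always-named genes and those of opposite direction.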

Additional observations from a re-analysis of the deposited data

Results flagged for a closer look

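The OSM effect at 1 h and at 24 h, each over its own DMSO arrays, differed by limma's test of that difference (adjusted p under 0.05), with 313 genes higher at 1 h and 189 lower. Over all genes these are 2.1% and 1.27%. Of 49 genes looked at, 37 differed, and the largest adjusted p among them was 0.041. Some of the 49 were picked because they passed this same test or were called in opposite directions. The count of 37 thus describes the choice of genes. Differences are log2 values, the 1 h effect minus the 24 h effect.

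Higher effects at 1 h were found for several immediate-early genes, 14 of the 27 measured having passed this test, beside 2.1% of all genes. The differences were 2.05 for EGR1, 1.90 for JUN, 1.21 for JUNB, 1.14 for FOS, 0.97 for JUND, 2.08 for CSRNP1, 1.38 for KLF6 and 2.55 for IRF1. They were 1.28 for SOCS3, 1.29 for CISH, 0.88 for SPRY2, 0.81 for DUSP8 and 1.11 for TRIB1. Of the cytokine signalling inhibitors 3 of 8 passed as higher at 1 h, and of the MAP kinase brakes 5 of 13, with 0 lower in both. These lists also held SOCS2 (0.72), DUSP1 (0.77), DUSP6 (0.57) and SPRY4 (0.52). SOCS1 (-0.02), ERRFI1 (0.12) and DUSP5 (0.51) rose at 1 h, but their differences did not pass. MIR146B differed by 2.06, HBEGF by 1.06, RIPK4 by 1.33, LOXL4 by 1.25, YPEL2 by 1.55, HPX by 1.24 and LIFR by 0.89. For MIXL1 (3.24), RHOB (1.42), ANKRD1 (1.40), FBXO5 (1.04) and TIPARP (0.78) the effect was called in opposite directions at the 2 times, as it was for JUND, SPRY2 and DUSP8. GSTA2 (3.02), LEAP2 (2.15) and LIFR (0.89) did not pass at 1 h and fell at 24 h.

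The effect was lower at 1 h for LBP (-1.97) and LY96 (-2.97), which act in lipopolysaccharide recognition, while CD14 of that pathway had a difference of 0.04 (adjusted p = 0.991). It was also lower for OSMR (-0.71), FLRT3 (-0.79), LYVE1 (-1.87) and RPL23AP32 (-2.25). TXNIP (-2.12), ARRDC4 (-1.21), MIR146A (-1.08) and MRPS31P5 (-0.71) fell at 1 h and rose at 24 h.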

How the results depend on the processing

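Of 113 called genes chosen for naming, 92 kept call and direction in every alternative run, and 21 lost the call in at least 1, most of them given beside their results. TRIB2, not called, ran from -0.0455 to 0.1586 when 1 array at a time was left out. Array weights raised the counts to 579 higher and 546 lower for OSM over DMSO at 1 h, to 784 and 540 for the difference from 24 h, and to 461 and 473 against BRD8518. Fitting only the groups compared gave 524 and 304 for the difference from 24 h. Position letter as a fixed term gave 130 and 53 against BRD8518, and as a random block its correlation was -0.0853. Leaving out 1 array at a time, including the DMSO array at 6 h that stood apart, gave 219 to 475 higher and 53 to 331 lower for OSM over DMSO, 245 to 682 and 139 to 418 for the difference from 24 h, and 157 to 392 and 67 to 324 against BRD8518, the highest each time without that 6 h array. The cause of these shifts was not tested. No paired analysis was possible because the titles carry no replicate numbers. Position number runs with treatment, RMA gives no signal over background, and 3 arrays per group limit what small changes can be seen.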
